A study of Danio rerio with 4 samples.

Results

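The proteasome subunit genes were taken as the protein-coding genes whose symbol starts with psm, a letter from a to g and a number, with at least 10 normalised reads in at least 2 of the 4 libraries. There were 47 of them among 20390 genes listed, of which 16754 passed the same filter on low values. All 47 genes that matched by symbol passed it, so none stood just outside. The members nearest to the minimum were psme4a, with 38 and 25 normalised reads in Cre-injected and 14 and 15 in uninjected embryos, and psmb10, with 38 and 28 in Cre-injected and 14 and 18 in uninjected embryos. Of the 47, 46 encode subunits, regulators or assembly factors of the proteasome. The remaining gene, psmc3ip, matches by symbol because it is named for binding the subunit PSMC3, and in mouse it acts in meiotic recombination.

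The proteasome is the protease that degrades proteins tagged with ubiquitin. Its core particle is a barrel of stacked rings, with alpha subunits at the ends as a gate and beta subunits in the middle, of which psmb5, psmb6 and psmb7 encode the catalytic ones. A regulatory particle caps the core: its base holds a ring of ATPases that unfold and feed in the substrate, and its lid removes the ubiquitin chain. In mammals, subunit genes are known to rise together through the transcription factor NFE2L1 when proteasome activity falls short, and interferon induces an immune-type set of catalytic subunits.

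RNA came from whole zebrafish embryos of the transgenic line bns298. Its transgene places the heat-inducible hsp70l promoter before a loxP-STOP-loxP cassette and npas4l, a bHLH-PAS transcription factor gene of blood and vessel formation, which is joined by the linker GGGGGLSRS and a P2A peptide to the red reporter mCherry. There were 2 libraries from embryos of this line injected with Cre, the recombinase that removes the cassette, and 2 from uninjected embryos of the line. Both groups carried the transgene, were raised at 28 °C, were exposed to 37 °C for 1 h, and were collected at the 6-somite stage. Injected embryos without the transgene were not analysed here, so what comes with injection or with Cre itself and what comes with npas4l cannot be told apart. The comparison addresses which transcripts differ between Cre-injected and uninjected embryos of this line after the exposure to 37 °C.

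The values are whole numbers that behave like reads per gene scaled between libraries and then rounded, called normalised reads below. They summed to 8933474 and 9861419 in the Cre-injected libraries and to 9093935 and 9479827 in the uninjected ones. Transcripts of npas4l, whose reads are not separated into transgene and endogenous gene, stood at 710 and 808 in Cre-injected and 370 and 279 in uninjected embryos, which fits the labels. All 11 marker genes of the whole embryo were listed, from the notochord gene tbxta to the endoderm gene sox17. By limma at an adjusted p under 0.05, 4 of their 12 rows were lower and 0 higher, where 6.19% of all genes tested were lower and 6.35% higher. The lower rows were krt4, sox3, sox19a and 1 of 2 rows listed as ctslb. Among uncalled rows, both Cre-injected libraries lay above both uninjected ones for tbxta, tal1 and sox17. Both lay below for myod1, krt5, gata1a and the other ctslb row, and the groups overlapped for foxd3. The gene sox17 passed the filter only through the Cre-injected libraries, at 17 and 28 against 9 and 8 normalised reads.

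Most proteasome genes differed little between the groups. By limma on log2(value + 1) with Benjamini-Hochberg adjustment over all 16754 genes, 2 of the 47 rose in Cre-injected embryos and 2 fell, at an adjusted p under 0.05. Over all genes tested the same rule called 6.35% higher and 6.19% lower, and the members' own shares were 4.26% in each direction, no larger than that background. The genes that rose were psmd1 and psmc3ip, the latter no proteasome gene, and those that fell were psmg1 and psmd11a. All 4 calls ended when either uninjected library was left out, as given below. At an unadjusted p under 0.05 there were 11 members, or 23.4%, against 28.4% of all genes tested. Scaling by library total left 2 higher and 1 lower (5.16% and 5.78% of all genes), and limma without its robust option left 1 and 1 (4.92% and 4.99%). An adjusted p under 0.1 gave 3 higher and 3 lower (9.47% and 9.63% of all genes), with psma3 and psmd10 added, and one under 0.01 gave psmd1 as higher and none lower (2.46% and 2.68%). Over 7 other settings of scaling, pseudocount and filter the members gave the same calls, with 5.08% to 6.93% of all genes higher and 5.69% to 6.8% lower. In whole-embryo RNA, fewer cells of a type and less RNA per cell cannot be told apart.

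**Figure D1:**
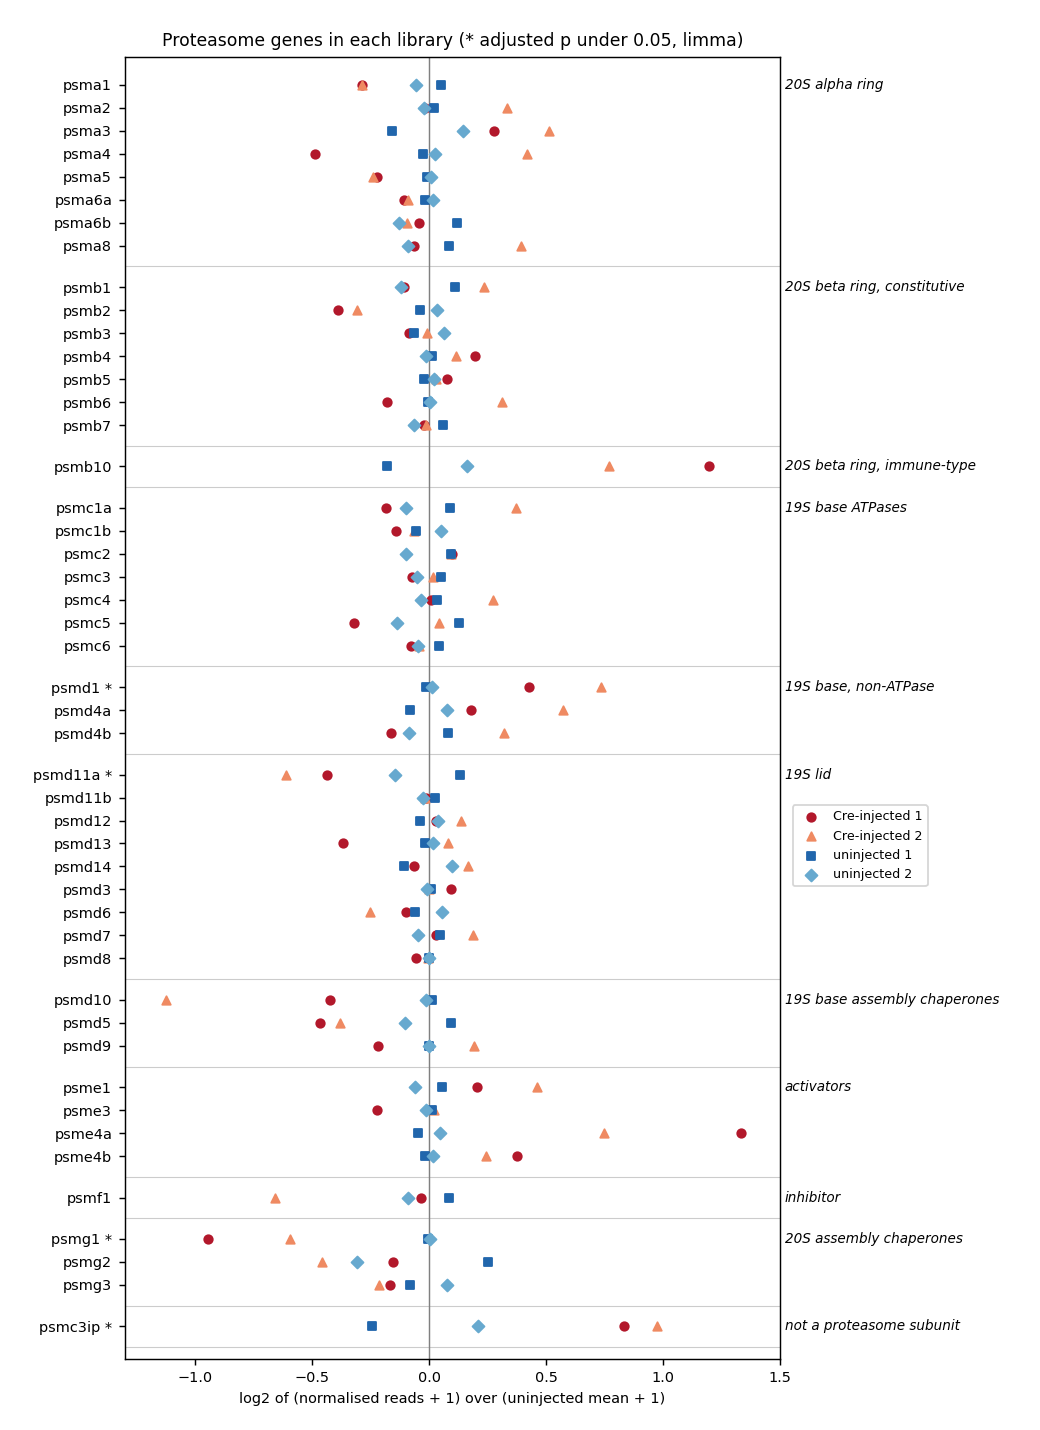
Each row is a proteasome gene and each point a library, as the log2 of its normalised reads plus 1 over the uninjected mean plus 1, with rows grouped by role and called genes starred. Most points lie close to 0. Those of psmd1, psmd11a, psmg1 and psmc3ip in Cre-injected libraries stand to 1 side of both uninjected libraries, as do those of uncalled members. Both Cre-injected libraries lay above in 10 of the 47 members and below in 12, or 21.3% and 25.5%. Over all genes tested these shares were 28.0% and 28.8%.

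The median log2 fold change of the members was -0.02, against 0 over all genes tested. In 31 of the 47 the log2 fold change was smaller than 0.25 in size, or 66.0%, against 43.0% of all genes tested. The members had a median of 538 normalised reads and all genes one of 128.5, and the part of this difference in level in those shares was not tested. The members with groups that did not overlap numbered 10 with both Cre-injected libraries above and 12 with both below, or 21.3% and 25.5%. Over all genes tested these shares were 28.0% and 28.8%. Summed over the 46 proteasome genes proper, the members made up 0.302% and 0.308% of the values of the Cre-injected libraries and 0.309% and 0.290% of those of the uninjected ones. With the mitochondrial chromosome set aside the shares were 0.346% and 0.370% in Cre-injected and 0.355% and 0.350% in uninjected libraries, and the groups overlapped in both cases.

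None of the 8 genes of the alpha ring passed the test (2 at an unadjusted p under 0.05, limma). Summed over the ring, normalised reads were 5181.5 ± 587.6 in Cre-injected and 5182 ± 33.9 in uninjected embryos (SD, n = 2 each). The largest positive log2 fold change of the ring was that of psma3, at 0.40 ± 0.14 (SE), with 692 and 814 normalised reads in Cre-injected against 511 and 631 in uninjected embryos (adjusted p = 0.089, limma). The largest negative one was that of psma1, at -0.29 ± 0.12 (SE), with 640 and 640 against 811 and 752 normalised reads (adjusted p = 0.142, limma). For neither gene did the groups overlap, and neither passed the threshold. The member of the ring with the most reads, psma5, had 1167 and 1152 normalised reads in Cre-injected and 1352 and 1368 in uninjected embryos (adjusted p = 0.189, limma). For psma4 the Cre-injected libraries, at 300 and 563, lay on both sides of the uninjected ones, at 413 and 428.

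The 7 constitutive beta-ring genes likewise gave no call (1 at an unadjusted p under 0.05, limma), and their sums were 4338 ± 182.4 in Cre-injected and 4252 ± 59.4 in uninjected embryos (SD, n = 2 each). Of the genes for catalytic subunits, psmb5, which encodes the chymotrypsin-like site, had 652 and 631 normalised reads in Cre-injected and 610 and 627 in uninjected embryos. Its log2 fold change was 0.05, with a 95% interval of -0.21 to 0.32. The caspase-like subunit gene psmb6 had 422 and 594 in Cre-injected and 476 and 480 in uninjected embryos, with an interval of the log2 fold change of -0.29 to 0.42. For the trypsin-like subunit gene psmb7 the values were 635 and 638 in Cre-injected and 672 and 617 in uninjected embryos, and the interval was -0.29 to 0.25. All 3 genes had groups that met or overlapped except psmb5, in which both Cre-injected libraries lay just above. The extremes of the ring were the structural subunit genes psmb4, with 1283 and 1214 against 1131 and 1111 (log2 fold change 0.15, adjusted p = 0.393, limma), and psmb2, with 366 and 387 against 467 and 491 (log2 fold change -0.35, adjusted p = 0.113, limma). Over all 15 constitutive core genes, the 95% intervals of the fold change lay between 0.642 and 1.64.

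A single immune-type subunit gene was listed, psmb10, which in mammals replaces psmb7 after interferon. Its 38 and 28 normalised reads in Cre-injected embryos lay above the 14 and 18 in uninjected ones, a log2 fold change of 0.99 ± 0.40 (SE) that did not pass the test (adjusted p = 0.127, limma). Its reads were few, and the 95% interval ran from 0.12 to 1.87. Other immune-type subunit genes were not analysed here.

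The 7 ATPase genes of the base spanned the narrowest range of the classes with more than 1 gene, with log2 fold changes from -0.13 (psmc5) to 0.14 (psmc4) and no call (0 at an unadjusted p under 0.05, limma). The gene psmc4 had 1467 and 1763 normalised reads in Cre-injected and 1493 and 1426 in uninjected embryos, and psmc5 had 573 and 736 in Cre-injected and 781 and 650 in uninjected embryos. The groups overlapped for both. Their 95% intervals, and those of the other members of the ring, lay between folds of 0.727 and 1.41.

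Of the 3 other base genes among the members, psmd1 rose. It encodes the largest scaffold of the base and lies on chromosome 22 from 37631034 to 37716627 on the plus strand (GRCz11). Its 2489 and 3076 normalised reads in Cre-injected embryos stood above the 1834 and 1866 in uninjected ones, for a log2 fold change of 0.58 ± 0.12 (SE) and an adjusted p of 0.00916 (limma). Both Cre-injected libraries were higher than both uninjected ones. The call held when Cre-injected replicate 1 (0.73) or replicate 2 (0.43) was left out. The call ended without uninjected replicate 1 (0.57, adjusted p = 0.177) or uninjected replicate 2 (0.59, adjusted p = 0.156, limma). A serotonin receptor gene, htr2b, lies inside psmd1 on the other strand and had at most 21 normalised reads in any library. The ubiquitin receptor genes psmd4a and psmd4b, which are paralogs, did not pass, with log2 fold changes of 0.38 for psmd4a and 0.08 for psmd4b (adjusted p = 0.241 and 0.765, limma). For psmd4b the Cre-injected libraries, at 1033 and 1446 normalised reads, lay on both sides of the uninjected ones, at 1222 and 1091.

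**Figure D2:**
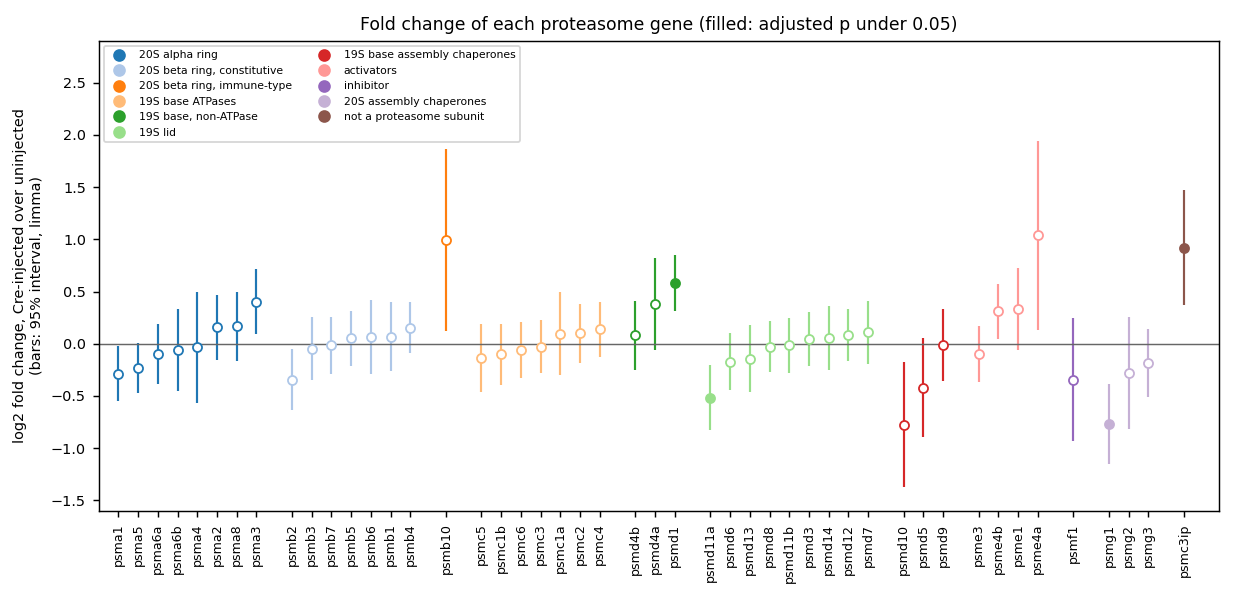
Points give the log2 fold change of each proteasome gene, Cre-injected over uninjected, with its 95% interval from limma as a bar, and filled points passed an adjusted p under 0.05. The ATPase, beta-ring and lid genes lie near 0 with the exception of psmd11a and psmb2, and the wide intervals of psmb10 and psme4a go with their few reads.

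Of the 9 lid genes, 1 fell and 8 passed in neither direction. The gene that fell, psmd11a, encodes a scaffold subunit of the lid and lies on chromosome 3 from 34801146 to 34816979 on the minus strand (GRCz11). It had 458 and 405 normalised reads in Cre-injected against 678 and 560 in uninjected embryos, a log2 fold change of -0.52 ± 0.14 (SE; adjusted p = 0.0356, limma). Both Cre-injected libraries lay below both uninjected ones. The call was lost with scaling by library total (adjusted p = 0.0555), without limma's robust option (adjusted p = 0.0536), without uninjected replicate 1 (-0.38, adjusted p = 0.415) and without uninjected replicate 2 (-0.65, adjusted p = 0.128). The deubiquitinase of the lid, psmd14, had 503 and 590 normalised reads in Cre-injected and 489 and 563 in uninjected embryos, a log2 fold change of 0.05. The scaffold gene psmd12 had 1072 and 1156 in Cre-injected and 1021 and 1079 in uninjected embryos, and psmd7, which encodes the partner of psmd14, had 420 and 469 in Cre-injected and 425 and 398 in uninjected embryos. In all 3 the groups overlapped.

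Of the 5 pairs of paralogs among the members, psmd11a and psmd11b are the pair with a called gene. The paralog psmd11b had 645 and 643 normalised reads in Cre-injected and 663 and 639 in uninjected embryos, with a 95% interval of the log2 fold change of -0.28 to 0.25. Of the reads of the pair, psmd11a took 41.5% and 38.6% in Cre-injected against 50.6% and 46.7% in uninjected embryos. The groups did not overlap, and the log2 ratio of psmd11a to psmd11b differed by -0.50 in Cre-injected against uninjected embryos, at an exact two-sided permutation p of 0.333, which is the smallest that 2 against 2 libraries allow. The groups also did not overlap, at the same p, for psme4a and psme4b (a difference of 0.73) and for psmd4a and psmd4b (0.30). The first of these rests on 14 to 38 normalised reads of psme4a. The groups overlapped for psmc1a and psmc1b (0.20). Among all single genes tested, both Cre-injected libraries lay above both uninjected ones in 28.0% and below in 28.8%. For the pair psma6a and psma6b the share of psma6a was 71.8% ± 0.69 in Cre-injected and 72.3% ± 2.79 in uninjected embryos (SD, n = 2 each). Reads of near-identical stretches could be split between paralogs by the authors' counting, so the values of single paralogs are uncertain to that extent.

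The activators, which open the gate of the core in place of the regulatory particle, gave no call among 4 genes (2 at an unadjusted p under 0.05, limma). For 3 of them both Cre-injected libraries were above both uninjected ones, an arrangement found in 28.0% of all genes tested. The gene psme4b, one of the paralogs for the activator PA200, had 927 and 846 normalised reads in Cre-injected and 706 and 723 in uninjected embryos (log2 fold change 0.31 ± 0.12 (SE), adjusted p = 0.112, limma). Its paralog psme4a, on few reads, had the largest log2 fold change of all members, 1.04 ± 0.41 (SE; adjusted p = 0.124, limma). For psme1, a subunit of the interferon-induced activator in mammals, the values were 174 and 208 in Cre-injected and 157 and 145 in uninjected embryos (adjusted p = 0.253, limma). The nuclear activator gene psme3 had 897 and 1064 in Cre-injected and 1058 and 1038 in uninjected embryos, with groups that overlapped. The inhibitor gene psmf1 had 79 and 51 in Cre-injected and 86 and 76 in uninjected embryos (adjusted p = 0.439, limma).

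Of the 6 genes for assembly factors, 1 fell and 5 passed in neither direction. The gene that fell was psmg1, a chaperone that helps the alpha ring form (chromosome 10, 206996 to 210703, minus strand, GRCz11), with 141 and 180 normalised reads in Cre-injected against 271 and 273 in uninjected embryos. The Cre-injected libraries lay far below the uninjected ones, with a log2 fold change of -0.77 ± 0.18 (SE; adjusted p = 0.0146, limma). Its size was -0.59 when Cre-injected replicate 1 was left out and -0.94 when replicate 2 was, and the call ended without uninjected replicate 1 (-0.77, adjusted p = 0.138) or uninjected replicate 2 (-0.76, adjusted p = 0.143, limma). Its dimer partner psmg2 had 100 and 81 normalised reads in Cre-injected and 133 and 90 in uninjected embryos, with overlap, and psmg3 had 276 and 267 in Cre-injected and 293 and 327 in uninjected embryos (adjusted p = 0.493 and 0.441, limma). Among the chaperones of the base, psmd10 had 72 and 44 in Cre-injected against 98 and 96 in uninjected embryos (log2 fold change -0.77 ± 0.27 (SE), adjusted p = 0.0859, limma). For psmd5 the values were 79 and 84 in Cre-injected against 117 and 102 in uninjected embryos (adjusted p = 0.228, limma), and psmd9 had 357 and 474 in Cre-injected around 415 and 415 in uninjected embryos. Summed over psmg1, psmg2 and psmg3, normalised reads were 522.5 ± 7.78 in Cre-injected and 693.5 ± 4.95 in uninjected embryos (SD, n = 2 each). The means of psmg1 alone were 160.5 and 272, so much of the difference in the sum lies in this called gene. Replicate differences of the summed genes went in opposite directions, which narrows the SDs of the sum.

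**Figure D3:**
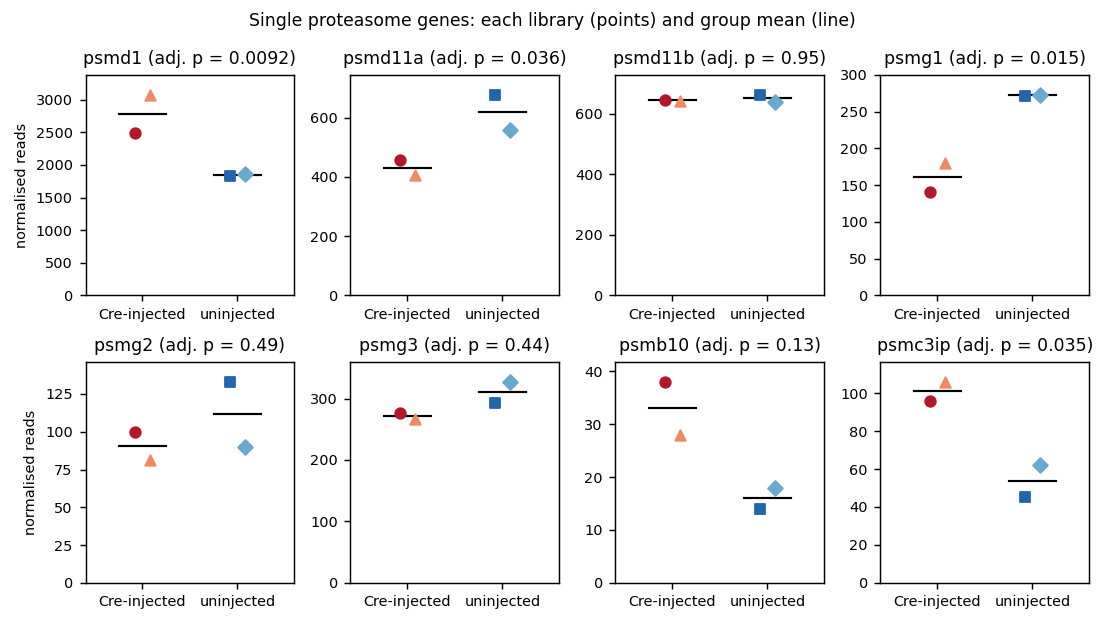
Normalised reads of 8 genes are plotted for each library (points) with the group mean (line), on axes that start at 0. In Cre-injected embryos psmd1 and psmc3ip stand higher and psmd11a and psmg1 lower than in both uninjected libraries, while psmd11b is level and psmg2 overlaps.

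The gene psmc3ip, which is no subunit, rose to 96 and 106 normalised reads in Cre-injected embryos, against 45 and 62 in uninjected ones (chromosome 3, 37112693 to 37135569, plus strand, GRCz11). Its log2 fold change was 0.92 ± 0.25 (SE; adjusted p = 0.0352, limma), and both Cre-injected libraries were above both uninjected ones. The call was lost without limma's robust option (adjusted p = 0.0521), and without Cre-injected replicate 2 (0.85, adjusted p = 0.055), uninjected replicate 1 (0.69, adjusted p = 0.286) or uninjected replicate 2 (1.15, adjusted p = 0.0788).

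The Cre-injected libraries differed from each other more than the uninjected ones did. The median size of the log2 difference between replicates was 0.18 over the members in Cre-injected and 0.10 in uninjected embryos, against 0.25 and 0.18 over all genes tested. Of the 47 members, 30 were higher in Cre-injected replicate 2 than in Cre-injected replicate 1, or 63.8%, against 49.5% of all genes tested. Heat shock genes showed the same order in 12 of 14 cases, with 26 and 132 normalised reads of hsp70.1 and 66 and 280 of hsp70l in Cre-injected replicates 1 and 2. Their part in the spread of the proteasome genes was not tested. The widest gap was that of psma4, a gene of the alpha ring, which passed the test as higher without Cre-injected replicate 1 (log2 fold change 0.42, adjusted p = 0.0181) and as lower without Cre-injected replicate 2 (-0.49, adjusted p = 0.013, limma).

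Leaving out a library changed which members were called. Without Cre-injected replicate 1, 9 members were higher and 3 lower, with 12.3% and 11.2% of all genes called; the 9 were psmd1, psma2, psma3, psma4, psma8, psmc4, psmd4a, psmd4b and psmc3ip. Without Cre-injected replicate 2, 2 members were higher (psmd1 and psme4b) and 5 lower (psmg1, psmd11a, psmd13, psmb2 and psma4), with 9.07% and 10.4% of all genes called. Without uninjected replicate 1 no member passed by limma (3 at an unadjusted p under 0.05), with 1.67% and 1.3% of all genes called higher and lower, and without uninjected replicate 2 none did either (6 at an unadjusted p under 0.05), with 1.36% and 1.25%. In each such fit the pair of libraries that is left sets the spread, and the lone library is assumed to vary likewise.

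**Figure D4:**
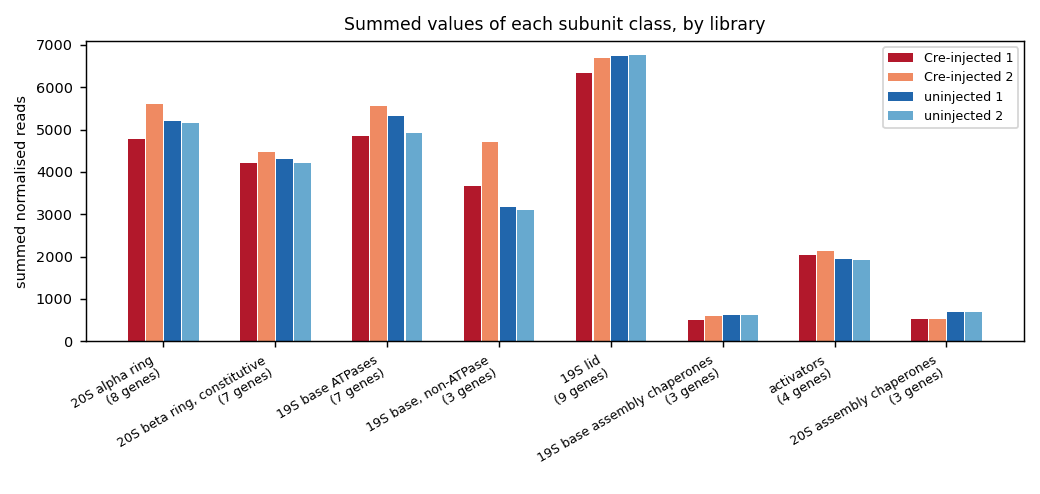
Bars give the summed normalised reads of each subunit class in each library, on an axis from 0. In the plot 20S stands for the core particle and 19S for the regulatory particle. The Cre-injected libraries lie on both sides of the uninjected ones for the alpha ring, the beta ring and the ATPases. The non-ATPase base bars, which psmd1 dominates, are higher. Those of the core assembly chaperones, of which only psmg1 was called, are lower. Both Cre-injected bars also lie below both uninjected ones for the lid (6328 and 6685 against 6729 and 6759). The same holds for the base assembly chaperones (508 and 602 against 630 and 613). Both lie above for the activators (2036 and 2143 against 1935 and 1921).

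The members lay on 20 chromosomes, with at most 5 on the same one (chromosome 19), and the closest pair, psmc1b and psma6b on chromosome 20, was 143 kb apart. Some members share their span with another listed gene, and whether strand was used in the counting is not stated in the sources at hand. All of psmd10 lies within the span of nxt2 on the other strand, which had 104 and 111 normalised reads in Cre-injected and 72 and 86 in uninjected embryos. The end of psmd4a overlaps by 869 bases a gene on the other strand listed by a clone name, which rose (log2 fold change 0.55, adjusted p = 0.0141, limma). Reads in such overlaps cannot be told apart.

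Related genes came from lists chosen with earlier results of these data known, and their counts are descriptions, to be read against the 6.35% higher and 6.19% lower of all genes tested. Among factors that work with the proteasome, 1 of 19 tested rose and 0 fell by limma. It was vcp, the ATPase that extracts ubiquitinated proteins, with 5847 and 6192 normalised reads in Cre-injected and 4879 and 4523 in uninjected embryos (log2 fold change 0.36 ± 0.11 (SE), adjusted p = 0.0451). Its call ended without uninjected replicate 1 (0.41, adjusted p = 0.341) or uninjected replicate 2 (0.30, adjusted p = 0.471), with scaling by library total, by upper quartile or by equal totals, and without limma's robust option (adjusted p of 0.0586 to 0.0833 over these). The lid subunit gene sem1 had 320 and 471 in Cre-injected and 359 and 358 in uninjected embryos, and the core maturation factor gene pomp had 376 and 329 in Cre-injected and 405 and 413 in uninjected embryos (adjusted p = 0.714 and 0.344, limma). An alpha subunit gene listed under the clone name si:rp71-45k5.4, and named psma2b in RefSeq's GRCz12tu table, had 294 and 333 in Cre-injected and 329 and 334 in uninjected embryos (adjusted p = 0.752, limma).

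Of the 14 tested regulators of proteasome and stress genes, 3 rose and 0 fell by limma. The bZIP factor gene nfe2l1a, a zebrafish counterpart of mammalian NFE2L1, had 158 and 112 normalised reads in Cre-injected against 76 and 73 in uninjected embryos (log2 fold change 0.83 ± 0.23 (SE), adjusted p = 0.0366). Its paralog nfe2l1b, with more reads, had 324 and 335 in Cre-injected and 330 and 303 in uninjected embryos, with overlap (adjusted p = 0.824). The small Maf gene maff, a partner of such factors, had 422 and 564 in Cre-injected against 256 and 242 in uninjected embryos (log2 fold change 0.97 ± 0.16 (SE), adjusted p = 0.00286). The last of them was nfe2l2b, an NRF2-type factor gene, with 44 and 53 in Cre-injected against 25 and 13 in uninjected embryos (adjusted p = 0.0409). The call of nfe2l1a ended without Cre-injected replicate 1 (log2 fold change 0.58, adjusted p = 0.121), without uninjected replicate 1 or 2, and with scaling by library total or equal totals or no robust option (adjusted p of 0.0504 to 0.0552). That of nfe2l2b ended without Cre-injected replicate 2 (log2 fold change 1.24, adjusted p = 0.0785) without either uninjected library and without the robust option (adjusted p = 0.0614), and that of maff without uninjected replicate 2 (0.93, adjusted p = 0.0563, limma).

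**Figure D5:**
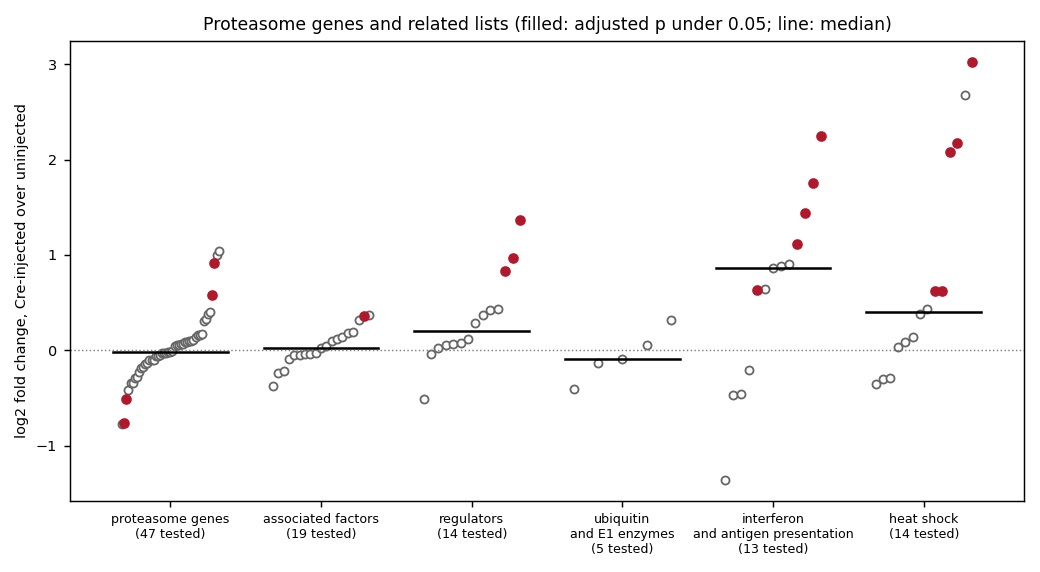
Points are log2 fold changes, Cre-injected over uninjected, of the proteasome genes and of 5 related lists, with lines at the medians and filled points for an adjusted p under 0.05. The proteasome genes and their associated factors centre near 0, with medians of -0.02 and 0.03. The interferon and heat shock lists have medians of 0.86 and 0.40. These lists hold genes that passed the filter on low values only through Cre-injected (b2m, hsp70.1) or only through uninjected libraries (erap1a). The interferon median is the value of b2m itself, so it depends on that filter.

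The polyubiquitin genes ubb and ubc did not pass, at 0.32 and -0.09 on the log2 fold scale (adjusted p = 0.0743 and 0.662, limma). In the interferon and antigen presentation list, 5 of 13 tested rows were higher and 0 lower (6.35% and 6.19% of all genes), beside the values of psmb10 and psme1 above. They included the ubiquitin-like modifier gene isg15, with 175 and 218 in Cre-injected against 48 and 34 in uninjected embryos (log2 fold change 2.25 ± 0.25 (SE), adjusted p = 0.000202, limma). The microglobulin gene b2ml had 697 and 818 in Cre-injected against 304 and 398 in uninjected embryos. The interferon signalling genes stat1a and irf9 had 234 and 242, and 66 and 110, in Cre-injected against 144 and 164, and 35 and 27, in uninjected embryos. The last was 1 of 2 genes listed as irf1b, with 116 and 147 in Cre-injected against 50 and 29 in uninjected embryos. The other irf1b row had 135 and 176 in Cre-injected and 213 and 214 in uninjected embryos (adjusted p = 0.121, limma). Some uncalled genes of the list, on few reads, were lower. The gene erap1a had 6 and 8 in Cre-injected against 22 and 17 in uninjected embryos (adjusted p = 0.119, limma). It passed the filter on low values only through the uninjected libraries, the group where it is high. For irf1a the values were 17 and 16 against 24 and 22 (adjusted p = 0.508, limma). In stat1b and tap2t, also uncalled and on few reads, both Cre-injected libraries lay above both uninjected ones. The same held for b2m, at 10 and 11 in Cre-injected against 3 and 9 in uninjected embryos. It passed the filter only through the Cre-injected libraries, so its direction is tied to that filter. The part of the genes of this list in the values of psmb10 and psme1 was not tested. Of the heat shock genes, 5 of 14 were higher and 0 lower, namely hsp70.1, hsp70.3, hsp70l, hsp90aa1.1 and dnajb1b. The chaperone gene hsp90aa1.1 had 8602 and 9289 in Cre-injected against 5858 and 5795 in uninjected embryos, and hsp70.3 had 599 and 1090 in Cre-injected against 235 and 155 in uninjected embryos. The uncalled hspa8 was lower, at 65746 and 72409 in Cre-injected against 86652 and 89298 in uninjected embryos (adjusted p = 0.0613, limma). So was hspb1, at 12477 and 16790 against 18791 and 16980 (adjusted p = 0.171, limma). For hsp70.2, hsp90aa1.2 and bag3, also uncalled, both Cre-injected libraries lay above both uninjected ones. The groups overlapped for hsp90ab1, hsf1, hsf2 and dnajb1a. For hsp70.1 the 26 and 132 in Cre-injected stood against 5 and 8 in uninjected embryos, and for hsp70l the 66 and 280 in Cre-injected against 33 and 26. Their log2 fold changes differed with the library left out: hsp70.1 stood at 4.18 without Cre-injected replicate 1 and at 1.88, not called, without replicate 2 (adjusted p = 0.0813), and hsp70l stood at 3.21 and 1.145. The call of hsp70l also ended with a pseudocount of 5 (adjusted p = 0.0699, limma), no filter (0.135) or a minimum of 10 in all 4 libraries (0.0586). With that minimum hsp70.1 was not tested, as it passed the filter only through the Cre-injected libraries, the group where it is high. The co-chaperone gene dnajb1b had 773 and 1162 in Cre-injected against 599 and 637 in uninjected embryos, and its call ended without the robust option (adjusted p = 0.065, limma). Its log2 fold change was 0.91 without Cre-injected replicate 1 and 0.32 without replicate 2, called in both. Without uninjected replicate 1 or 2, 6 or 5 of the 14 calls in the 5 lists were left, among them irf1b, isg15, b2ml and hsp70.3 in both cases. The calls of stat1a, hsp70l, hsp90aa1.1 and dnajb1b ended in both, that of hsp70.1 without replicate 1 (adjusted p = 0.108) and that of irf9 without replicate 2 (adjusted p = 0.108, limma). Without Cre-injected replicate 1 or 2, 13 or 12 were left.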

How the data were processed

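The deposited table gives a score in whole numbers for each gene in each library, from total RNA of whole embryos. Regular gaps between the values are the basis for reading them as reads per gene that the authors scaled and rounded. The submitters' processing notes name FastQC 0.11.8 and Trimmomatic 0.36, STAR 2.6.0c, featureCounts 1.6.0 as well as DESeq2 1.14.1, and builds GRCz11 and danRer11. As the values are not raw counts, limma 3.58.1 (R 4.3.3) was fitted to log2(value + 1) with a variance trend and robust shrinkage. Genes needed 10 normalised reads in 2 libraries or more, and adjustment ran over all 16754 of them (Benjamini-Hochberg). Fold changes of low genes are understated on this scale. The fit was tested on simulated data. Tables and figures used pandas 2.3.3, SciPy 1.17.1 and matplotlib 3.10.9.

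Groups come from the titles, which the table's column names repeat. No label ties a replicate to its own clutch, so the p-values describe spread between libraries that may be technical. Replicate libraries were not identical: the median chi-square per gene was 2.46 in Cre-injected and 1.29 in uninjected embryos, against 0.455 for counting noise in raw counts. As the values are scaled, neither the excess over counting noise nor the contrast between the groups can be read from these figures.

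The members and lists were chosen with earlier results of these data known. Named were members past the threshold, the catalytic and immune-type beta subunits, the members of each class with the highest and lowest fold change and the most reads, and, among related genes, those past the threshold with nfe2l1a, nfe2l1b and pomp. Others were named after their values were seen, and 1 related gene is not reported here. Reads of different genes were set side by side only as reads, as in the shares of paralogs and the member with the most reads. No transcript lengths were used, so these are not levels per transcript. Alternatives covered scaling, pseudocount, filter, threshold, shrinkage, the replicate block and the removal of single libraries.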

Additional observations from a re-analysis of the deposited data

How the results depend on the processing

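Of the 2 higher members, psmd1 is a proteasome gene and psmc3ip is not. The 2 higher and 2 lower members were the same in number under median-of-ratios and upper-quartile scaling, totals made equal after mitochondrial and structural RNA genes were set aside, pseudocounts of 0.5 and 5, no filter, and a minimum of 10 in all 4 libraries. Scaling by library total gave 1 lower, no robust option gave 1 higher and 1 lower, and an adjusted p under 0.01 gave 1 higher and 0 lower. Leaving out a library gave 0 to 9 higher and 0 to 5 lower, and the median log2 fold change of the members then ran from -0.073 to 0.047 (0.047 without Cre-injected replicate 1). Over all genes, 1064 were higher and 1037 lower. An adjusted p under 0.1 gave 1614 lower, one under 0.01 gave 412 higher and 449 lower, and leaving out a library gave 228 to 2064 higher and 210 to 1871 lower.

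Several members not called with all libraries changed sign as libraries were left out. Besides psma4, described above, psma8 ranged from -0.061 to 0.40 and psmd13 from -0.37 to 0.083 in log2 fold change, among others. Of the 24 members named by the rule given above, 6 changed sign. Their log2 fold changes then ranged from -0.18 to 0.31 for psmb6 and -0.16 to 0.32 for psmd4b, both negative without Cre-injected replicate 2; psmd4b passed without Cre-injected replicate 1. They ranged from -0.078 to 0.045 for psmb7, positive without uninjected replicate 1, and from -0.31 to 0.047 for psmc5, -0.22 to 0.19 for psmd9 and -0.22 to 0.022 for psme3, all positive without Cre-injected replicate 1. The cause was not tested. Same-numbered libraries did not deviate together (Pearson's r = -0.03 across 16754 genes, which are not independent replicates), so the numbers are not taken as pairs. The mitochondrial share was nonetheless similar by number, at 12.61% and 16.88% in Cre-injected and 13.03% and 17.37% in uninjected replicates 1 and 2. With the replicate block the members again gave 2 higher and 2 lower, and among related genes the call of vcp ended (adjusted p = 0.0685). With 2 libraries a group, differences in genes of few reads can go unresolved. Those of psmb10 and psme4a, at log2 fold changes of 0.99 and 1.04, did not pass the threshold.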
